A study of Mus musculus with 10 samples.

Results

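The genes described here are 35 extracellular matrix genes other than collagens, taken from the 34607 gene names that the array carries. A probe was assigned to a member when its gene name in the scanner output was that of the member and it was not a control spot, which gave 52 probes, and no other probe carried a transcript accession of a member. The members were sorted by role into 6 proteoglycans, 10 elastic fibre genes, 5 cross-linking enzymes, 5 basement membrane genes and 9 adhesive and matricellular genes. The cells were C2C12, a line of mouse myoblasts, transfected with Lipofectamine 2000 and 150 nM of either a mirVana mimic of miR-142-3p or a scrambled sequence. RNA was collected after 72 h, with a stated transfection efficiency of about 60%, and 150 ng was labelled with Cy3 for a single-colour array. The labels name 6 mimic and 4 scramble samples, and the file headers place them on 1 slide with 5 array positions, all of which were read on 2 days. The 2 scans of a position were averaged, so that the comparison rests on 3 mimic arrays and 2 scramble arrays. C2C12 is 1 clonal line, the scramble titles carry a re-analysis remark, and nothing says from which culture each array's RNA came, so p-values cover only how far these arrays lie apart, which may be technical.

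The matrix around cells is built from fibrillar scaffolds and from the proteins that bind, space and join them. Small leucine-rich proteoglycans coat collagen fibrils, fibrillins and fibulins carry elastin, lysyl oxidases oxidise lysine residues so that collagen and elastin can be joined covalently, and nidogens and perlecan link the laminin and collagen networks of the basement membrane. In skeletal muscle a basement membrane surrounds each fibre, and connective tissue cells make most of the interstitial matrix. MicroRNAs lower the output of target transcripts mainly by pairing of their seed with sites in the 3′ untranslated region.

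The microRNA and 2 probes that read enzymes compared below are shown first. The mature miRNA is given as in RefSeq (GRCm38.p6, chr11:87756903-87756925, plus strand), with the seed, bases 2 to 8, in capitals. The Loxl1 probe (mm9, chr9:58138570-58138629, minus strand) is the one that stands for that gene. The Loxl2 probe (mm9, chr14:70092141-70092200, plus strand) is 1 of 3 for its gene, and the capitals in both probes mark the longest run they share.
mmu-miR-142a-3p: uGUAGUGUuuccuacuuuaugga
Loxl1: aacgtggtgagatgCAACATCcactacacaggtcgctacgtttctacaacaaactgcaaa
Loxl2: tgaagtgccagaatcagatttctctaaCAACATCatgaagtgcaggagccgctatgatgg
The shared run was 7 bases of 60, and the longest run shared by probes of any 2 different members was 12 bases, between Bgn and Hspg2. Probes were compared with each other and not with transcripts, so these runs do not show whether a probe reads 1 family member alone. The match to seed bases 2 to 8, ACACTAC, was in 0 of the 52 member probes, against 144 of the 55681 probes of the array (0.259%). Other seed matches were not counted. The Loxl1 probe above holds CACTACA, which matches bases 2 to 7 and has an A opposite base 1. Probes cover only 60 bases of a transcript, so this says nothing of the rest of the transcript.

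Signals are given as log2 of the processed intensity minus the 75th percentile of the scan, a scale on which one probe cannot be set against another. The share of spots well above background was 25.4% to 34.6% per scan. The arrays' number limits the precision. Myod1, Des, Cdh15, Chrna1 and Myog, of 7 myoblast markers, were measured, whereas Pax7 was above background on no scan and Myf5 on 3 mimic scans alone. The summed linear signal of the 5 measured markers was 102 to 114 on mimic arrays and 305 to 364 on scramble arrays, in units of each scan's 75th percentile. This sum rests most on Chrna1, which had the highest signal of the 5 on each array. Myog fell by 7.08, Myod1 by 3.25, Cdh15 by 1.98 and Des by 1.32 on the log2 scale, all called. Chrna1 differed by −0.71, with a limma adjusted p of 0.0564. The leukocyte markers Ptprc, Lyz2, Tyrobp and Adgre1, the endothelial markers Pecam1, Cdh5 and Tek, all 4 epithelial markers, and the fibroblast markers Thy1, Tcf21 and Dpep1 were above background on no scan. The remaining endothelial marker, Kdr, was above background on 6 mimic and 4 scramble scans and differed by 0.38 (limma adjusted p of 0.338). The remaining fibroblast marker, Pdgfra, was above background on 3 mimic and 3 scramble scans and differed by −0.14 (limma adjusted p of 0.731). The summed signal of the 4 measured leukocyte markers was 49.97 to 54.8 on mimic arrays and 18.2 to 18.3 on scramble arrays, with Cd68 (4.83 on the log2 scale) and Cd14 (1.54) higher with the mimic. Csf1r and Itgam differed by 0.17 and 0.15, with limma adjusted p-values of 0.699 and 0.679. The part of these shifts in the matrix genes was not tested, and in bulk RNA fewer cells of a type and less RNA per cell cannot be told apart.

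Of the 35 members, 29 gave signals that could be tested and 24 of these were above background on all 10 scans. In limma's test across 13677 genes, 8 of the 29 passed an adjusted p of 0.05 (27.6%), where 9.74% of all genes did. Lum, Efemp1 and Nid1 were higher with the mimic (3 of 29, 10.3%, against 5.86% of all genes), and Postn, Fap, Nid2, Loxl1 and Fbln1 were lower (5 of 29, 17.2%, against 3.88%). The median log2 difference, mimic minus scramble, was 0.17 over the tested members and 0.09 over all genes. Arrays of the groups did not overlap for 17 members (58.6%), where this was so for 42.6% of all genes. In no role group were more than 2 members called, and the basement membrane and elastic fibre groups each held 1 call in either direction. No test was made over the list, and passing the background filter required signal in only part of the scans. Of the genes called lower, Postn passed the filter on its 4 scramble scans alone, and Fap on 4 scramble scans and 1 mimic scan. The shares called include both.

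**Figure D1:**
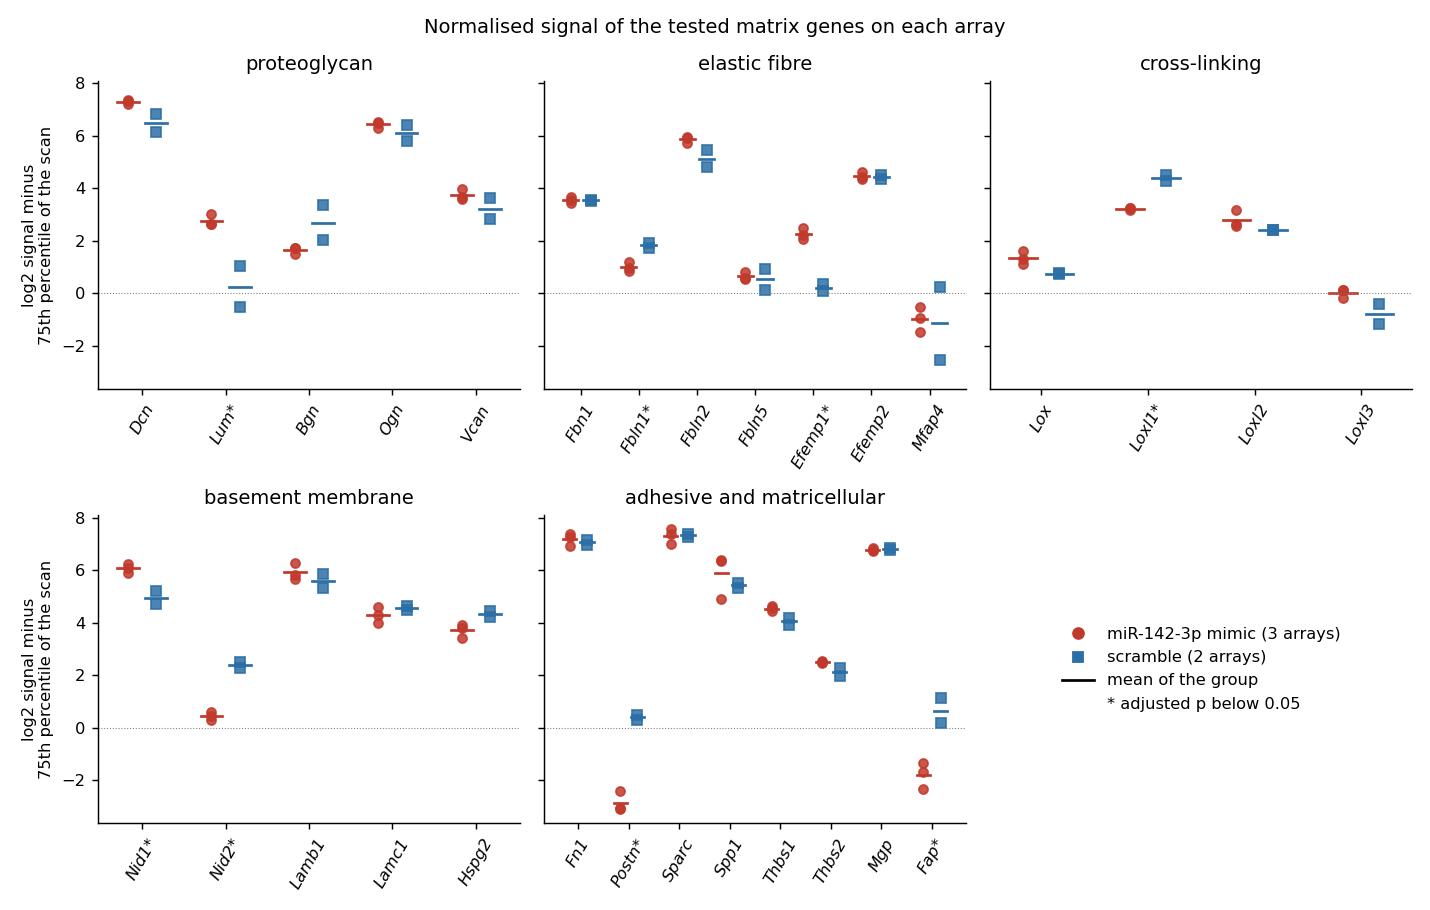
Normalised log2 signal (log2 minus the 75th percentile of the scan) of each tested matrix gene on the 3 mimic arrays (circles) and 2 scramble arrays (squares), by role, with group means as lines and an asterisk for an adjusted p below 0.05. The scramble squares of Lum, Bgn and Mfap4 lie far apart, while the mimic circles of these genes lie closer together.

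**Figure D2:**
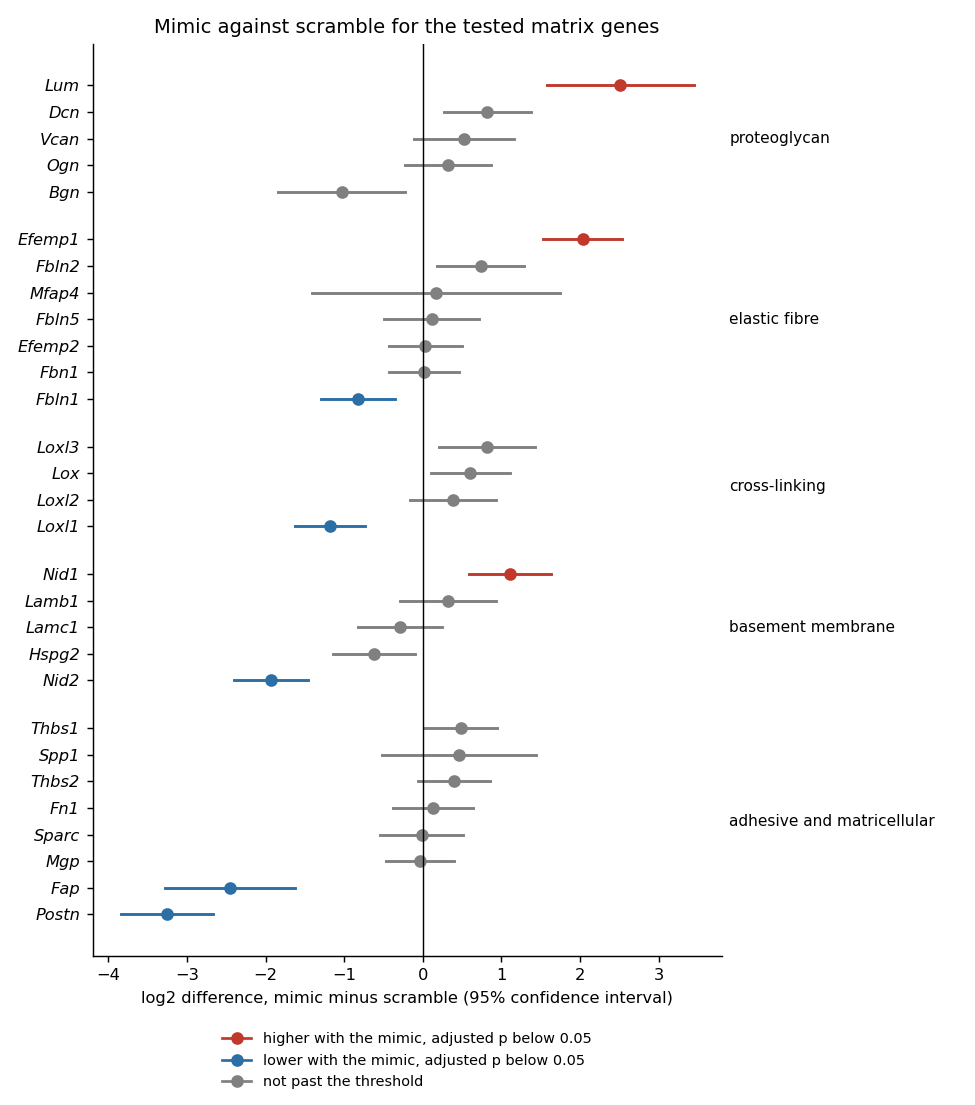
Log2 difference, mimic minus scramble, with its 95% confidence interval for each of the 29 tested genes, grouped by role on the vertical axis. Lum (2.51), Efemp1 (2.04) and Nid1 (1.11) are the called genes right of 0, and Postn (−3.25, fitted, not above background on any mimic scan) lies farthest left.

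The proteoglycans differed among themselves. Lum, which encodes lumican, a keratan sulfate proteoglycan that spaces collagen fibrils, was the only one to pass the test. Its normalised signal was 2.65, 3.01 and 2.65 on the 3 mimic arrays, against 1.04 and −0.53 on the 2 scramble arrays. All mimic arrays lay above both scramble arrays, and the scramble arrays lay farther from each other than the mimic arrays did. The means were 2.77 ± 0.21 with the mimic (SD, n = 3) and 0.26 ± 1.11 with the scramble (SD, n = 2), a log2 difference of 2.51 ± 0.41 (SE) or 5.71-fold, with a limma adjusted p of 0.00700. Its probe (mm9, chr10:97035210-97035269, plus strand) was above background on 6 of 6 mimic scans and 3 of 4 scramble scans. The difference was 3.30 without scramble array 1 and 1.73 without scramble array 2. Either fit leaves 1 scramble array, so the spread of the scramble group does not enter it and only the differences are read.

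Bgn, the gene of biglycan, a chondroitin or dermatan sulfate proteoglycan related to decorin, had the opposite sign. It read 1.52, 1.75 and 1.73 on mimic arrays, against 2.05 and 3.35 on scramble arrays. The groups did not overlap, but most of the difference came from scramble array 2. The log2 difference was −1.03 ± 0.35 (SE), with an adjusted p of 0.113 and a 95% interval of −1.84 to −0.22. It was −1.69 without scramble array 1 and −0.38 without scramble array 2. The only Bgn probe (mm9, chrX:70738554-70738613, plus strand) holds the run shared with a Hspg2 probe and is printed for that reason.
Bgn: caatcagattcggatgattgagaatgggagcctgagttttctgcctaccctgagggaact

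Dcn, which encodes decorin, the fibril-coating relative of biglycan, read 7.35, 7.35 and 7.23 on mimic arrays, against 6.82 and 6.15 on scramble arrays. The arrays separated, and the log2 difference of 0.82 ± 0.24 missed the threshold with an adjusted p of 0.0727. Without scramble array 1 it was 1.16, and without scramble array 2 it was 0.49. Vcan, the gene of the large hyaluronan-binding proteoglycan versican, differed by 0.52 ± 0.28 and Ogn, which encodes osteoglycin, by 0.32 ± 0.24, with adjusted p-values of 0.282 and 0.440. For Vcan the scramble arrays read 3.64 and 2.82, so that scramble array 1 lay among the mimic arrays at 3.66, 3.97 and 3.60. Without scramble array 1 the Vcan difference was 0.93, and without scramble array 2 it was 0.11. A second kept Vcan probe differed by 0.02. Fmod, which encodes fibromodulin, was above background on 1 mimic scan and no scramble scan and was not tested.

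Among the elastic fibre genes, Efemp1 and Fbln1, 2 fibulin genes, moved in opposite directions. Efemp1 encodes an extracellular glycoprotein also called fibulin-3. It read 2.07, 2.49 and 2.21 on mimic arrays, against 0.35 and 0.09 on scramble arrays. The means were 2.26 ± 0.22 (SD, n = 3) with the mimic and 0.22 ± 0.18 (SD, n = 2) with the scramble, and the gap was many times the spread in either group. The log2 difference was 2.04 ± 0.22 (SE), 4.10-fold, with a limma adjusted p of 0.000707. The call held under all 20 alternatives, with differences of 1.52 to 2.17. The probe lies at mm9 chr11:28826647-28826706 on the plus strand.

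Fbln1, which encodes fibulin-1, a protein of elastic fibres and basement membranes, read 0.85, 1.19 and 0.99 on mimic arrays, against 1.74 and 1.93 on scramble arrays. Every mimic array lay below both scramble arrays. The log2 difference was −0.82 ± 0.21 (SE), 1.77-fold, with a limma adjusted p of 0.0438, just inside the threshold. Leaving out mimic array 1, mimic array 2 or mimic array 3 ended the call, with differences of −0.74, −0.92 and −0.81. The difference was −0.92 without scramble array 1 and −0.73 without scramble array 2. The Fbln1 call was also lost with the slide row as a block (−0.78, limma adjusted p of 0.0847), on the first and on the second scan day alone (0.0607 and 0.0557), by array median (0.470) and without a filter (0.434). Its other 2 probes differed by −0.94 and −1.12, with limma adjusted p-values of 0.123 and 0.0276 over all kept probes. The probe that stands for Fbln1 lies at mm9 chr15:85115998-85116057 on the plus strand.

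The other elastic fibre genes did not pass the test. Fbln2, the gene of a fibulin that binds fibronectin and nidogen, read 5.94, 5.92 and 5.75 on mimic arrays, against 5.46 and 4.81 on scramble arrays. Its groups did not overlap, and the log2 difference was 0.74 ± 0.24 with a limma adjusted p of 0.101. Without scramble array 1 it was 1.06, and without scramble array 2 it was 0.41. The scaffold and assembly genes lay near 0. The log2 difference was 0.01 ± 0.19 for Fbn1, which encodes the microfibril protein fibrillin-1, 0.03 ± 0.20 for Efemp2, and 0.12 ± 0.26 for Fbln5, whose products act in elastic fibre assembly. The sign of each of these 3 turned under some alternatives, 2 or more of them scalings for Fbn1 and Efemp2.

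Mfap4, which encodes a microfibril-associated glycoprotein, could not be placed. Its scramble arrays read 0.26 and −2.53 and the mimic arrays lay between them, with a log2 difference of 0.17 ± 0.69. Without scramble array 1 it was 1.57, and without scramble array 2 it was −1.23. Eln, the gene of elastin itself, and Mfap5 were above background on no scan, and Mfap2 on 2 scramble scans at most and no mimic scan, so these 3 were not tested.

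Of the cross-linking enzymes, Loxl1 fell with the mimic. Its product, lysyl oxidase-like 1, is needed for elastic fibre maintenance in mice. Loxl1 read 3.24, 3.26 and 3.19 on mimic arrays, against 4.29 and 4.52 on scramble arrays. The mimic arrays were nearly the same and lay about a log2 unit below the scramble arrays. The difference was −1.18 ± 0.19 (SE), 2.26-fold, with a limma adjusted p of 0.00755. The second Loxl1 probe differed by −0.82, with a limma adjusted p of 0.0983, and had no value on scramble array 2. The call held without each mimic array in turn. The difference was −1.29 without scramble array 1 and −1.07 without scramble array 2. The call was lost with scaling by the array median (−1.10, limma adjusted p of 0.128) and without a filter on dim probes (limma adjusted p of 0.154). The difference was −1.08 within the first row of the slide and −1.26 within the second.

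The other 3 tested lysyl oxidase genes did not pass the test. The probes that stand for Lox, which encodes the founding lysyl oxidase, for Loxl2 and for Loxl3 differed by 0.60 ± 0.22, 0.39 ± 0.24 and 0.82 ± 0.27, with limma adjusted p-values of 0.132, 0.350 and 0.100. In each of the 3 the mimic arrays lay above both scramble arrays, and the groups did not overlap in any of the 4 tested enzymes, as for 42.6% of all genes. Loxl3 read −0.17, 0.15 and 0.13 on mimic arrays, against −1.17 and −0.39 on scramble arrays. Without scramble array 2 its difference was 1.20, and without scramble array 1 it was 0.43. Loxl4 was above background on 2 mimic scans at most and no scramble scan.

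For Lox and Loxl2 the answer depended on the probe. A second Lox probe read 1.40, 1.303 and 1.26 on mimic arrays, against 0.42 and 0.39 on scramble arrays, a difference of 0.92 ± 0.19 with a limma adjusted p of 0.0215 over all kept probes. The Loxl2 probe printed above read 0.62, 0.84 and 0.57 on mimic arrays, against −0.51 and −0.54 on scramble arrays. Its difference was 1.20 ± 0.20 with a limma adjusted p of 0.00799, and it was above background on 6 of 6 mimic scans but on 1 of 4 scramble scans. The remaining Loxl2 probe differed by 0.67, with a limma adjusted p of 0.0844. All of these had the sign of the probe that stands for the gene.

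**Figure D3:**
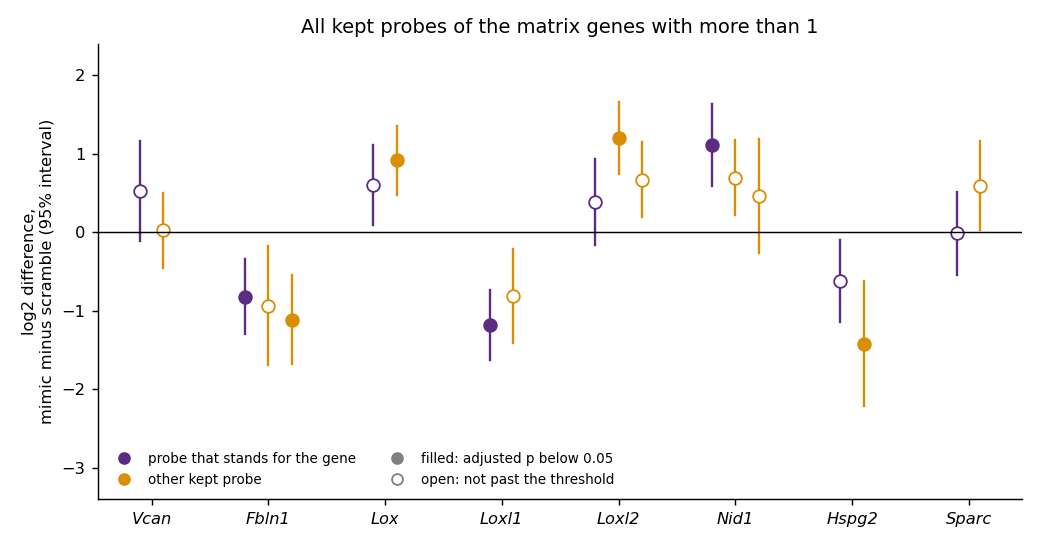
Log2 difference, mimic minus scramble, with its 95% confidence interval for every kept probe of the 8 matrix genes with more than 1, the probe that stands for the gene in purple and others in orange, filled where the adjusted p was below 0.05. The probes of a gene share their sign in 7 of the 8 genes; for Sparc they are −0.01 and 0.59.

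The nidogens, paralogous glycoproteins that bridge laminin and type IV collagen, moved in opposite directions. Nid2 read 0.44, 0.29 and 0.61 on mimic arrays, against 2.27 and 2.48 on scramble arrays. Its means were 0.45 ± 0.16 (SD, n = 3) with the mimic and 2.38 ± 0.15 (SD, n = 2) with the scramble, with no overlap. The log2 difference was −1.93 ± 0.21 (SE), 3.81-fold, with a limma adjusted p of 0.000683. The call held under all 20 alternatives, of which the fits on separate scans or without 1 scramble array are not read as support. The Nid2 probe lies at mm9 chr14:20630490-20630549 on the plus strand.

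Nid1 read 5.90, 6.24 and 6.08 on mimic arrays, against 5.19 and 4.72 on scramble arrays. The groups separated, and the log2 difference was 1.11 ± 0.23 (SE), 2.16-fold, with a limma adjusted p of 0.0197. Leaving out mimic array 1, mimic array 2 or mimic array 3 ended the call, with differences of 1.20, 1.03 and 1.11. The difference was 1.35 without scramble array 1 and 0.88 without scramble array 2. The Nid1 call was also lost with the slide row as a block (1.10, limma adjusted p of 0.0562), on the second scan day alone (1.02, 0.0509), by array median (0.0801), when its probes were averaged (0.0580) and without a filter (0.235). The other 2 probes differed by 0.70 ± 0.21 and 0.46 ± 0.31, with limma adjusted p-values of 0.0787 and 0.394. The probe with the difference of 0.46 had no value on mimic array 3. The average of the probes on that array therefore left it out, and the averaged fit mixes unlike sets of probes. The probe that stands for Nid1 lies at mm9 chr13:13604435-13604494 on the plus strand. The probe with the difference of 0.70 lies at mm9 chr13:13530138-13555992 on the plus strand, a stretch far longer than its 60 bases, so that it crosses a splice junction, and it is printed because it reads another stretch of the Nid1 transcript.
Nid1: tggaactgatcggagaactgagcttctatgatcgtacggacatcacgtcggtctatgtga

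Hspg2, which encodes perlecan, a heparan sulfate proteoglycan of basement membranes, read 3.79, 3.41 and 3.93 on mimic arrays, against 4.22 and 4.44 on scramble arrays. All mimic arrays were lower, and the log2 difference of −0.62 ± 0.23 missed the threshold with a limma adjusted p of 0.136. A second probe differed by −1.42 ± 0.35, with a limma adjusted p of 0.0405. Lamb1 and Lamc1 encode the beta 1 and gamma 1 chains that many laminins share. Their log2 differences were 0.32 ± 0.27 and −0.29 ± 0.23, with limma adjusted p-values of 0.493 and 0.479, and the arrays of the groups overlapped for both.

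Of the 8 tested adhesive and matricellular genes, 2 fell with the mimic, Postn and Fap, and both had signals at background on most or all mimic scans. Postn encodes periostin, a matricellular protein that binds collagen and integrins and is made by fibroblasts and osteoblasts. It read −3.04, −2.42 and −3.11 on mimic arrays, against 0.50 and 0.29 on scramble arrays. The probe (mm9, chr3:54194840-54194899, plus strand) was not well above background on any of the 6 mimic scans and was above it on all 4 scramble scans. The level with the mimic is therefore known only as a bound. The fitted difference was −3.25 ± 0.26, with a limma adjusted p of 0.000164 that belongs to this fit and not to the bound. On the scale used here the bound put Postn at least 3.11-fold lower, or 1.64 on the log2 scale. For this bound the scramble mean was divided by the mean of the mimic arrays. Each dim reading was first raised, where needed, to the dimmest level that counted as well above background on that array. A reading over that level can still fail to count as above background, as for Smoc2 below, so the bound is a convention.

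Fap encodes fibroblast activation protein, a cell-surface serine protease that cleaves denatured collagen. It read −2.33, −1.70 and −1.36 on mimic arrays, against 1.13 and 0.18 on scramble arrays. Only 1 of 6 mimic scans was above background, against 4 of 4 scramble scans. The fitted log2 difference was −2.45 ± 0.36 (SE), with a limma adjusted p of 0.00403. No fold is given for Fap, because its mimic signals were mostly at background. The Fap probe lies at mm9 chr2:62339001-62339060 on the minus strand. With another background correction (normexp) the fitted differences of Postn and Fap were −1.46 and −1.14, past the threshold but smaller, and for Postn smaller than the bound above, so that the bound holds only for the scanner software's background correction.

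The other adhesive and matricellular genes did not pass the test. Fn1, which encodes fibronectin, differed by 0.13 ± 0.22, Mgp, an inhibitor of calcification, by −0.04 ± 0.19, and Sparc, a collagen-binding glycoprotein, by −0.01 ± 0.23 on the log2 scale. The 95% intervals were −0.37 to 0.64, −0.47 to 0.40 and −0.54 to 0.52, so a doubling of their signal lay outside each. A second Sparc probe differed by 0.59, with a limma adjusted p of 0.180. Its 95% interval of 0.03 to 1.16 takes in a doubling. Thbs1 and Thbs2, whose products are matricellular thrombospondins that inhibit angiogenesis, differed by 0.49 ± 0.20 and 0.40 ± 0.20, with limma adjusted p-values of 0.180 and 0.261. Their mimic arrays lay above both scramble arrays. Spp1, which encodes osteopontin, read 4.91, 6.40 and 6.35 on mimic arrays, against 5.32 and 5.53 on scramble arrays, so that the mimic arrays lay on both sides of the scramble arrays. Tnc, the gene of tenascin-C, was above background on 2 scramble scans at most and on no mimic scan, and was not tested.

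Of the 21 tested members that did not pass, 9 had groups that did not overlap (42.9%, against 42.6% of all genes) and 14 differed by less than 0.5 on the log2 scale in either direction. Without mimic array 1, 2 or 3, 2 members were called higher and 4 lower each time, in place of 3 and 5. The share of all genes called was then 4.69%, 4.91% and 4.88%. On the first scan day alone 4 were higher and 4 lower (9.39% of all genes called), and on the second 2 were higher and 4 lower (6.87%). With the slide row as a block 2 were higher and 4 lower (5.92%). The groups did not overlap for any of the 8 called members, so their direction within a slide row was fixed in advance and is not a check. Only the sizes are read: within the first and second row the differences were 1.61 and 3.54 for Lum, and 0.80 and 1.52 for Nid1.

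**Figure D4:**
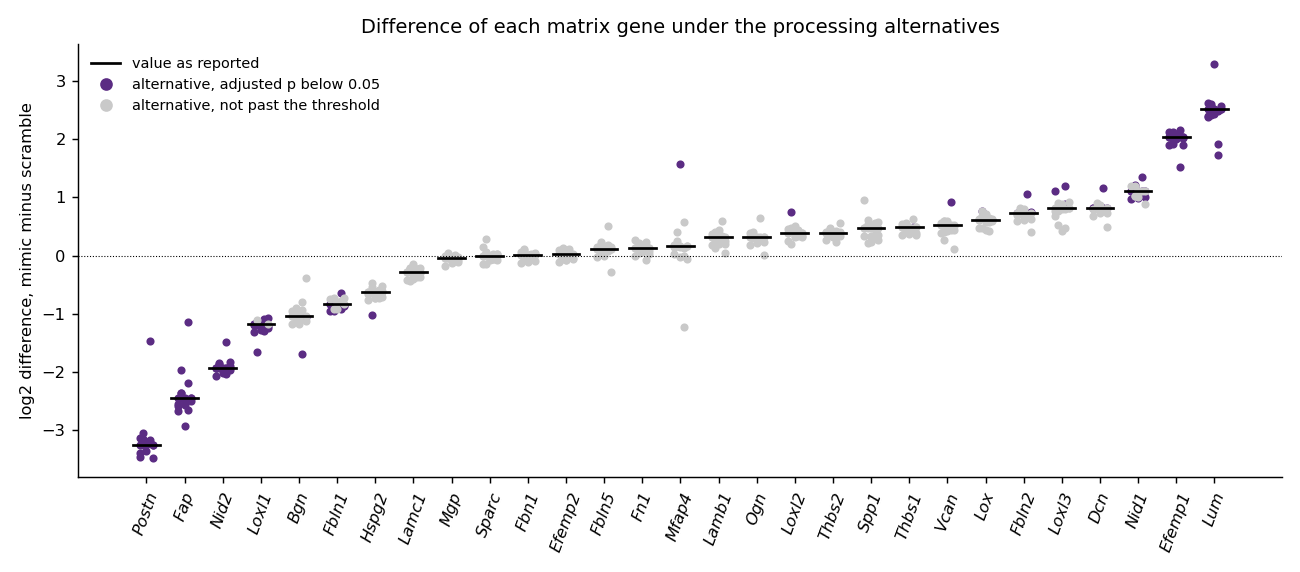
Log2 difference, mimic minus scramble, of each tested matrix gene as reported (black line) and under the processing alternatives (points, purple where the adjusted p was below 0.05). Lum, Efemp1, Nid2, Postn and Fap stay past the threshold under every alternative that tested them, and Mfap4 spans −1.23 to 1.57. Fits with the scans as separate samples and fits without 1 scramble array are among the points.

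A second list of 82 non-collagen matrix genes outside the members was read in the same way. Of these 39 were tested, 7 were higher with the mimic and 4 lower (28.2% called, where 9.74% of all genes were, 5.86% higher and 3.88% lower). Their median log2 difference was 0.23, against 0.09 over all genes. The largest fall was in Fndc1, which encodes a fibronectin type III domain protein. It read −0.42, −0.41 and −0.43 on mimic arrays, against 4.16 and 3.35 on scramble arrays, a difference of −4.18 ± 0.26 or 18.1-fold with a limma adjusted p of 7.17e-05. Ccn2, the gene of a matricellular growth factor-binding protein, was not above background on any mimic scan. By the bound used for Postn it was at least 4.49-fold lower. The limma adjusted p of 0.000135 belongs to its fitted log2 difference of −2.79 ± 0.21 and not to the bound. Ltbp4, whose product holds latent TGF-beta in the matrix, was 2.00-fold lower and Lama2, which encodes the laminin alpha 2 chain of the muscle basement membrane, 1.96-fold lower, with limma adjusted p-values of 0.0164 and 0.0172.

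Among those that were higher, Has1, a hyaluronan synthase gene, read 3.28, 3.67 and 3.47 on mimic arrays, against 1.42 and 1.68 on scramble arrays. The groups were far apart, at 1.93 ± 0.22 or 3.799-fold with a limma adjusted p of 0.000871. Omd, which encodes osteomodulin, a relative of lumican, was above background on all mimic scans and no scramble scan. By the bound used for Postn it was at least 2.05-fold higher. The limma adjusted p of 0.000810 belongs to its fitted log2 difference of 2.11 ± 0.23 and not to the bound. Ecm1 was 1.97-fold higher and Smoc2, which encodes a relative of Sparc, 1.93-fold higher, with limma adjusted p-values of 0.0210 and 0.0236. Smoc2 was above background on no scramble scan. Its scramble readings of −0.66 and −0.70 were not dim enough to be raised, so its fold is the fitted one and not a bound. Without mimic array 1, 2 or 3, 2 of the 39 genes were called higher and 2 lower each time. The share of all genes called was then 4.69%, 4.91% and 4.88%.

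Promoters are shown for Efemp1 and Postn, called in opposite directions, with motifs found by a search of the 250 bases before a start site on both strands. The table holds promoters of 20 of the 35 members, 28 in all. The letters TGANTCA were in 1 member promoter, that of Efemp1, and in 6.75% of all 32851 promoters. The TATA box letters TATAAA were in 6 member promoters, of Ogn, Postn, Spp1, Thbs2 and Tnc, and in 12.4% of all. The E-box letters CAGCTG were in 4 member promoters (Bgn, Fbln1, Ogn and Sparc) and in 13% of all, and the TEAD-type letters GGAATG in 3 (Mfap2, Nid1 and Ogn) and in 12.6%. The RefSeq sequences (GRCm38.p6, plus strand) run over chr11:28852955-28853204 for Efemp1 and chr3:54360857-54361106 for Postn, with the TGANTCA and TATAAA matches in capitals, at −154 to −148 and −26 to −21 from the start. A match is letters in a window, not a bound site.
Efemp1: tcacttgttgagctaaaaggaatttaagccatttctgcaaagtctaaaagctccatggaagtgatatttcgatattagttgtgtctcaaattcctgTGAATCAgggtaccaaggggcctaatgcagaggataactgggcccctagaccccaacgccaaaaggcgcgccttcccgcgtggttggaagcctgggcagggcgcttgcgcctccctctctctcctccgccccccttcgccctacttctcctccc
Postn: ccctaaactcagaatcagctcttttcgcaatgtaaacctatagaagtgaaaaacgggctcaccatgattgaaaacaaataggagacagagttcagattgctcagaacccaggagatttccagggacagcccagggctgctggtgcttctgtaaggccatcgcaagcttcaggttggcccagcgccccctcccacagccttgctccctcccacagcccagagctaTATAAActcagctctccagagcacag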

How the data were processed

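The members, the second gene list and the tests were chosen with earlier results of these data known. The deposited scanner files hold spot intensities on a linear scale, corrected for background in Feature Extraction, whose version is 12.0.0.7 per the file headers and 10.7.3.1 per the submitters' processing notes. The deposited series matrix, used as an alternative, holds intensities too and was taken to log2. No annotation of the mm9 build was used, so exons and UTRs of probes are not stated.

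From each scan, control and outlier spots were left out, log2 of the processed signal was taken relative to the 75th percentile, and spots of a probe were averaged. The scans of an array position shared 57 to 106 outlier spots, against 6 to 24 for scans of different positions, and were averaged. They correlated at 0.986 to 0.991, and scans of different positions at up to 0.991, so the correlation does not tell positions apart. A probe was kept when well above background on at least 4 of 10 scans (17455 probes), and the probe with the highest mean stood for its gene. The lmFit and eBayes functions of limma 3.58.1 in R 4.3.3 were run on 13677 genes, with Benjamini-Hochberg adjustment and a threshold of 0.05, and were tested on simulated data. Probes of 1 gene were compared in the same fit over all kept probes. All 35 members are described, with array values for those called or differing by at least 1 log2 unit; array values of other members were added after they were seen, as was the choice of printed probes and promoters. Of the second list up to 4 genes in each direction are named in order of p. Sequences of the miRNA and promoters are from RefSeq, those of probes from the deposited files.

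Mimic and scramble replicates share numbers in the labels. Deviations of same-numbered scans from their group means correlated at −0.28 to 0.19, so the numbers were not taken as pairs.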

Additional observations from a re-analysis of the deposited data

How the results depend on the processing

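Over 20 alternatives, 573 differences of members were computed: 495 kept sign and side of the threshold, 26 newly passed it, 20 no longer did and 32 changed sign. The alternatives include the fits without 1 scramble array, whose calls rest on the spread of the mimic arrays alone. They also include fits that count the 2 scans of an array as separate samples. The sign changes were all in 7 uncalled genes, and their causes were not tested, nor were those of the moved counts below. The log2 differences were with the percentile over bright probes Fbn1 −0.12, Fbln5 −0.019, Efemp2 −0.10 and Fn1 −0.00064, with quantile normalisation Fbn1 −0.10 and Efemp2 −0.082, with normexp Fbn1 −0.048, Efemp2 −0.0103, Mfap4 −0.0105 and Fn1 −0.072, on the second scan day Fbn1 −0.092, Fbln5 −0.0067 and Efemp2 −0.071, from the series matrix Fbn1 −0.087 and Efemp2 −0.062. They were with the slide row as a block Mfap4 −0.025 and Sparc 0.028, by array median Sparc 0.067 and Mgp 0.043, as the mean of its probes Sparc 0.29, with the replicate block Sparc 0.022, on the first scan day Sparc 0.039. Leaving out 1 array gave ranges of −0.055 to 0.11 for Efemp2, −0.27 to 0.50 for Fbln5, −0.038 to 0.067 for Fbn1 (−0.0023 without scramble array 1), −1.23 to 1.57 for Mfap4 (−0.054 without mimic array 1), −0.08 to 0.0029 for Mgp and −0.14 to 0.15 for Sparc (0.031 without scramble array 2). Called genes were 1332, with 761 by array median, 407 without a filter, 4154 with the 10 scans as samples, 810 with the slide row as a block, and 641, 672 and 668 without mimic array 1, 2 or 3, 969 without scramble array 2 and 3671 without scramble array 1 (a range of 641 to 3671). Members called higher, 3, were 9 with 10 scans as samples and 5 with a block for scan date plus a random one for array. They were 2 without each mimic array in turn. Members called lower, 5, were 3 by array median, without a filter, with a filter on all 10 scans and from the series matrix. They were 4 without each mimic array in turn. The filter on all 10 scans removed members that were dim on part of the scans, Postn and Fap among them. Of the second list 7 were higher, with 3 by array median, 2 without a filter, 13 with 10 scans, 3 on the second day, 2 with the slide row as a block and 2 to 12 with 1 array left out. Of the second list 4 were lower, with 2 by array median, 2 without a filter, 10 with 10 scans and 7 with date as a block. There were 2 without each mimic array in turn. With the replicate number as a block over 10 scans, 2336 genes were called (17.1%). Then 6 members were higher and 6 lower, and 9 and 8 genes of the second list. The numbers were not shown to pair the samples. Scaling moved the median over all genes between −0.04 (percentile over bright probes) and 0.18 (array median), against 0.09. Probes dim in 1 group, such as those of Postn and Fap, carry background in their size.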
